A study of Mus musculus with 48 samples.

Results

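Dexamethasone, a synthetic glucocorticoid, was compared with vehicle in primary mouse astrocytes from the striatum on 8 of the 48 arrays of the series, the 4 labelled dexamethasone and the 4 labelled vehicle in astrocytes. The cells came from C57Bl/6J mice. Glial cells of pups in the first week after birth were selected with beads that bind the astrocyte surface protein GLAST, grown in culture, kept in unsupplemented medium on the last day and then given 100 nM dexamethasone or vehicle, which for the steroids is ethanol, for 4 h. Both groups therefore share the selection, the culture and the unsupplemented medium, and differ in the steroid, and the comparison asks which transcripts it changes in these cells. The labels describe the 4 arrays of a group as independent biological replicates without saying which animals or cultures they came from. The p-values thus measure a spread between arrays, which the fit estimated from the 24 astrocyte arrays of all 6 treatments and moderated over probes. Every value is a log2 intensity on a bead array, and a difference of 1 on this scale is a 2-fold difference of intensity. Intensities of different probes are not set against each other.

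The glucocorticoid receptor, encoded by Nr3c1, rests in the cytoplasm in a complex with heat shock proteins and immunophilins, and moves to the nucleus once it has bound a steroid. There it binds palindromic response elements next to genes that it activates, among them genes of metabolism, of the circadian clock and of feedback on the receptor itself, and it also restrains transcription driven by NF-kB and AP-1 at genes of inflammation. Astrocytes are a main glucocorticoid-responsive cell type of the brain, where they take up glutamate and glucose, store glycogen and shape the local inflammatory response.

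The cultures had the transcripts of astrocytes, and of microglia as well. Gfap, the intermediate filament of astrocytes, had a mean level of 16.38 with vehicle and 16.34 with dexamethasone, and Slc1a3, which encodes GLAST, 16.46 and 16.45. The microglial transcripts Laptm5 (16.19 with vehicle), C1qc (14.60), Trem2 (13.77) and Cx3cr1 (13.65) were also far above the level of 7.5 under which most probes of the array lie (63.0% of 46174), whereas the neuronal Snap25 (6.92) and Gad2 (6.93) lay under it. Markers of other cell types were also measured above it, since only 6 of 12 neuronal, 4 of 11 oligodendrocyte lineage and 1 of 6 ependymal markers were under 7.5 in both groups. The mean of the ependymal markers was 10.85 to 11.09 on the vehicle arrays. In such bulk samples, fewer cells of a type cannot be told apart from less of the RNA in each cell. The median of an array lay between 7.10 and 7.16 over the series, and arrays of the same group among the 8 correlated at r = 0.9916 to 0.9945 over all probes (12 pairs). No file used here gives a depth, and the number of arrays limits the precision.

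Dexamethasone changed the level of 1266 genes, about as many upwards as downwards, but the large changes were rises. At a false discovery rate of 1%, limma called 1023 probes higher and 952 lower of 46174 tested. Taking for each of 20250 named genes the probe of highest mean level in astrocytes, 617 genes (3.05%) were higher and 649 (3.2%) lower with dexamethasone. Of these, 134 rose and 55 fell by at least 2-fold, 38 rose and 4 fell by at least 4-fold, and 11 rose and 0 fell by at least 8-fold. The median called rise was 0.60 and the median called fall -0.52 on the log2 scale, beside a median of -0.01 over all genes and a median standard error (SE) of 0.10. Over all 20250 genes, all 4 dexamethasone arrays lay above all 4 vehicle arrays for 1001 (4.94%) and below them for 1009 (4.98%), and these include 558 of the 617 genes called higher and 548 of the 649 called lower, whose call already favours groups that do not overlap. Of the genes that rose, 73 were under 7.5 with vehicle, and of those that fell, 78 were under 7.5 with dexamethasone, so that their fold changes are compressed by the background. The fit took the replicate number as a block, since arrays of the same number deviated together. Without the block, 446 genes were higher and 419 lower, and the simpler test named in the study's methods, on these 8 arrays, called 113 higher and 58 lower. The counts of the gene lists below are read against the 3.05% and 3.2% of all genes.

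**Figure D1:**
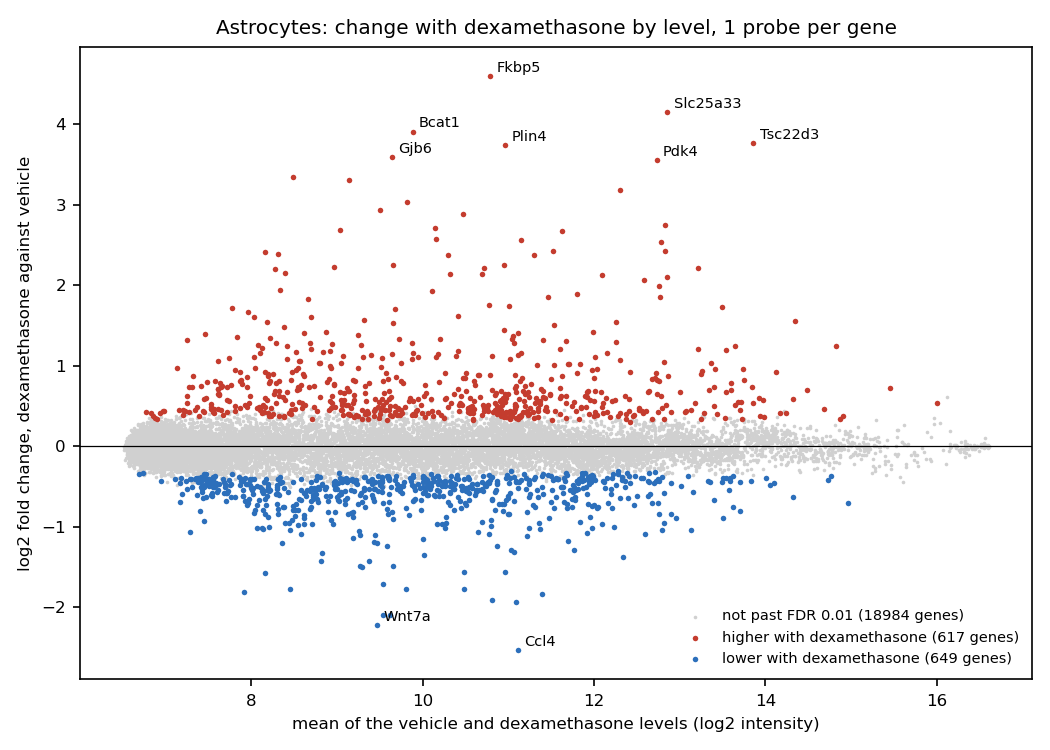
Each point is a gene (1 probe per gene), with the mean of its vehicle and dexamethasone levels in astrocytes on the x axis (log2 intensity) and the log2 fold change with dexamethasone against vehicle on the y axis (4 arrays against 4). Red points are the 617 genes called higher, blue points the 649 called lower at a false discovery rate of 1%, and grey points the other 18984. The rises reach 4.60 (Fkbp5), while the falls end at -2.53 (Ccl4).

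The largest change belonged to Fkbp5, an immunophilin that binds the receptor complex and lowers its affinity for steroid. Fkbp5 had levels of 8.41, 8.70, 8.17 and 8.66 on the vehicle arrays 1 to 4 and of 13.14, 13.21, 13.06 and 12.94 on the dexamethasone arrays. The 4 dexamethasone arrays lay close together, more than 4 units above every vehicle array, a difference of 4.60 ± 0.10 (log2 ± SE) or 24.3-fold (limma, adjusted p = 1.2e-27). Tsc22d3, which encodes GILZ, a leucine zipper protein that holds back NF-kB and AP-1, measured 12.02, 11.77, 12.09 and 12.03 with vehicle and 15.25, 15.49, 16.12 and 16.10 with dexamethasone. Dexamethasone arrays 3 and 4 were higher than 1 and 2, and none overlapped the vehicle arrays (3.76 ± 0.11, 13.6-fold, limma adjusted p = 1.12e-23). A second Tsc22d3 probe rose as well, by 4.32. Sgk1, the serum- and glucocorticoid-regulated kinase, was already high at 13.82, 13.72, 13.24 and 13.51 and stood at 15.15, 15.40, 14.95 and 15.01 with dexamethasone. Its groups did not overlap either, at a smaller difference of 1.55 ± 0.11 (limma, adjusted p = 2.82e-13).

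Several of the largest rises were in carriers and enzymes of metabolism. Slc25a33, a pyrimidine nucleotide carrier of the inner mitochondrial membrane, had levels of 10.95, 10.85, 10.70 and 10.61 with vehicle and 14.98, 15.08, 14.96 and 14.71 with dexamethasone, a clear separation of 4.16 ± 0.09 or 17.8-fold (limma, adjusted p = 3.05e-27). Bcat1, the cytosolic aminotransferase of branched-chain amino acids, went from near background, 7.96, 7.86, 8.11 and 7.79, to 11.96, 11.65, 11.89 and 11.86 (3.91 ± 0.10, 15-fold, limma adjusted p = 9.05e-25). Its other probe lay at background (mean 6.60) and did not pass the test (0.02). Plin4, which coats lipid droplets, measured 9.32, 9.16, 8.92 and 8.97 with vehicle and 13.06, 12.98, 12.78 and 12.51 with dexamethasone (3.74 ± 0.10, 13.4-fold, limma adjusted p = 8.26e-25). In the same way Pdk4, the kinase that switches off pyruvate dehydrogenase, measured 11.09, 11.24, 10.88 and 10.61 with vehicle and 14.61, 14.56, 14.34 and 14.52 with dexamethasone, with all 4 treated arrays over 3 units above the vehicle arrays (3.55 ± 0.09, 11.7-fold, limma adjusted p = 1.1e-25). A second, dim Pdk4 probe (mean 7.13) did not pass the test (-0.26). Slc10a6, a sodium-dependent carrier of sulfated steroids, lay at background with vehicle, at 6.91, 6.77, 6.72 and 6.85, and at 10.12, 10.06, 10.25 and 10.20 with dexamethasone, so its difference of 3.35 ± 0.10 understates the change (limma, adjusted p = 4.27e-23).

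The other 8 of the 15 largest rises had varied roles. Gjb6, which encodes a gap junction connexin of astrocytes, measured 7.87, 7.95, 7.66 and 7.88 with vehicle against 11.36, 11.36, 11.45 and 11.56 with dexamethasone. The groups were far apart (3.59 ± 0.11, 12.1-fold, limma adjusted p = 6.22e-23). Map3k6, a kinase at the head of stress-activated MAP kinase cascades, measured 7.79, 7.51, 7.39 and 7.27 with vehicle against 10.84, 10.59, 10.92 and 10.82 with dexamethasone (3.30 ± 0.10, limma adjusted p = 1.97e-23). Errfi1, an inhibitor of the epidermal growth factor receptor, measured 10.92, 10.92, 10.55 and 10.45 with vehicle against 13.81, 14.13, 13.80 and 13.85 with dexamethasone (3.19 ± 0.10, limma adjusted p = 6.22e-23), where dexamethasone array 2 was above the other 3. Ramp2, a partner of the calcitonin receptor-like receptor in adrenomedullin receptors, rose by 3.04, from a mean of 8.30 ± 0.04 to 11.34 ± 0.13 (SD, n = 4). Mapk4, an atypical MAP kinase, rose by 2.93, the Myc family transcription factor Mycl by 2.88, and Sphk1, the kinase that makes sphingosine 1-phosphate, by 2.71. The pair of other Sphk1 probes lay at background (mean 7.03 each) and did not pass the test. Fam107a, an actin-binding protein induced by stress, measured 11.36, 11.55, 11.34 and 11.55 with vehicle and 13.96, 14.27, 14.03 and 14.53 with dexamethasone, again without overlap (2.75 ± 0.11, limma adjusted p = 4.77e-20).

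**Figure D2:**
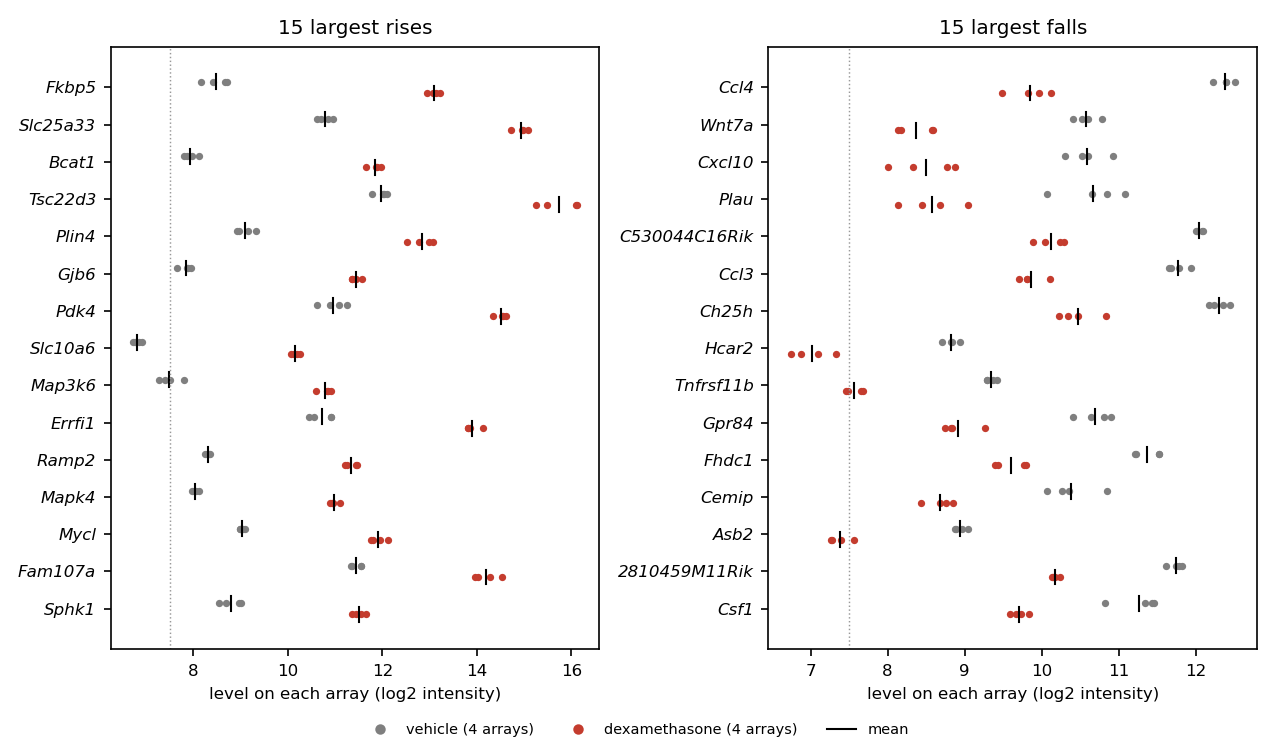
Levels (log2 intensity, x axis) of the 15 genes with the largest rises (left) and the 15 with the largest falls (right) on each of the 4 vehicle arrays (grey) and the 4 dexamethasone arrays (red), with group means as black bars and a dotted line at 7.5. The groups of a gene do not overlap, which the choice of these genes required. Slc10a6 starts from background at about 6.8, and Hcar2 falls to it.

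Promoters of the genes that rose were searched for the response element of the receptor, in the form GNACANNNTGTNC, in the 300 bases from 250 before to 50 after each transcript start on both strands (RefSeq promoters, build GRCm38.p6). Of the genes higher by at least 2-fold, 107 had a promoter in the table, with 142 starts, and 8 of these promoters (5.6%), of 7 genes, held the element: Car14, Map3k6, Slc10a6, Folh1, Sgk1, Fam107a and Map7d2. Over all 19343 promoters of the genes tested, 82 (0.4%) held it. It was in 9 of 647 promoters (1.4%) of all genes that rose, the additional gene being Ptgdr2, and in 2 of 689 (0.3%) of genes that fell, those of Fkbp7 and Eml1. The single arm AGAACA, which can overlap the element, was in 12.2% of the promoters of genes that rose, 12.6% of those of genes that fell and 15.6% of all. The sequences of 4 of the genes named here are shown because they place the element beside the measured rise, with the matched letters in capitals, 5′ to 3′ along the transcript, on chr10:21993640-21993939 (+ strand, match from base -188), chr4:133240568-133240867 (+, -181), chr5:103629354-103629653 (- strand, -163) and chr14:8309730-8310029 (-, -118), where positions count from the transcript start. A match is a description of these letters and not a measured binding site.
Sgk1: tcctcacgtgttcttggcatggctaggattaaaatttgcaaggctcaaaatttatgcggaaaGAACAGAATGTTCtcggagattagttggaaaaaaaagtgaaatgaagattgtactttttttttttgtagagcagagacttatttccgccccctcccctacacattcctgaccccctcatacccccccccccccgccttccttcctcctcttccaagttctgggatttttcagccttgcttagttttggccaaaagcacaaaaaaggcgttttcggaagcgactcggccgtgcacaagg
Map3k6: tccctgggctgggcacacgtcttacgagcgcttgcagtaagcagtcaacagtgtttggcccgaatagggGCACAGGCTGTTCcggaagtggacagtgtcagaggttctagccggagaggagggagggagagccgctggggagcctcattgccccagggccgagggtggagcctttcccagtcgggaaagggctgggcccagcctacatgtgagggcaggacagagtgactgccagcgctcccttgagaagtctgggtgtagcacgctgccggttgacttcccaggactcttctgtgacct
Slc10a6: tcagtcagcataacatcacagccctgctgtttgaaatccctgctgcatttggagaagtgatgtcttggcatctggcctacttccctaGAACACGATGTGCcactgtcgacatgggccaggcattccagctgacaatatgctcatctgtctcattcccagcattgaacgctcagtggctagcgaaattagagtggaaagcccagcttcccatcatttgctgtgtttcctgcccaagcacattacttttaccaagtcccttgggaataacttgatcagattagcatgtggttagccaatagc
Fam107a: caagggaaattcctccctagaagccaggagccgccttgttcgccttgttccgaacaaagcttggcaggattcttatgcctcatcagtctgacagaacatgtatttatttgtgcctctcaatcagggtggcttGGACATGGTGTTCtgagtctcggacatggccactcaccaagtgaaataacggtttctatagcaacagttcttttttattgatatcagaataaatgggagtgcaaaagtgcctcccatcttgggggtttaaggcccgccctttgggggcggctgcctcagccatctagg

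Among 34 measured genes listed as known glucocorticoid receptor targets, 29 rose (85.3%, against 3.05% of all genes) and 0 fell, with a median of 1.45 against -0.01 over all genes. The list was chosen with earlier results of these data known, so this share and median describe the list and are no independent test of it. Besides those given above the members that rose include Ddit4, an inhibitor of mTOR signaling (2.54, adjusted p = 3.73e-22), Hif3a, a hypoxia-inducible factor subunit (2.42), Sult1a1, a sulfotransferase (2.68), Lcn2, a siderophore-binding lipocalin (2.21), and Mertk, a receptor for the engulfment of dead cells and synapses (1.51). Nfkbia, the inhibitor that holds NF-kB in the cytoplasm, rose by 1.30, Zfp36, which marks cytokine mRNAs for decay, by 1.16, and the repressors Zbtb16 and Bcl6 by 1.26 and 0.60. The 5 members that did not pass the test were Dusp1, the MAP kinase phosphatase (0.26, adjusted p = 0.0448), Cebpd (0.27, adjusted p = 0.121), Rgs2 (-0.22, adjusted p = 0.25), Angptl4 (0.09, adjusted p = 0.71) and the metallothionein Mt1 (0.01, adjusted p = 0.978). Mt1 had means of 16.59 and 16.60, next to the highest value of the whole table (16.65), where little room is left for a rise, whereas Mt2 rose by 0.92 (adjusted p = 1.69e-06). The probe of the receptor Nr3c1 itself lay at background in both groups (7.18 and 7.19) and gives no measure of it. Of 26 genes of the receptor complex, its chaperones and coregulators, 5 rose (19.2%, against 3.05% of all genes) and 0 fell. Those that rose were Fkbp5, the small heat shock protein Hspb1 (2.56), the phosphatase Ppp5c (0.53), Ep300 (0.41) and Hsph1 (0.43, a call lost without vehicle array 4 or dexamethasone array 2, highest adjusted p = 0.0174). The list median of 0.04 was near that of all genes, and Fkbp4 (0.13, adjusted p = 0.478) and Hsp90aa1 (-0.04, adjusted p = 0.909) did not pass the test.

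The clock genes were split, with 5 of 21 higher (23.8%, against 3.05% of all genes) and 3 lower (14.3%, against 3.2%). Per1 rose from 10.11 ± 0.15 to 12.48 ± 0.14 (SD, n = 4; limma, adjusted p = 2.34e-19), and Per2 (0.92), the repressor Ciart (1.16) and the activator Rora (0.88) also rose. Dbp, an output factor of the clock, fell by 1.03 on the log2 scale (adjusted p = 3.58e-11). The other called members were less stable: Tef was called higher (0.58), and Bhlhe40 (-0.41) and Nr1d2 (-0.46) lower, but without vehicle array 1 or 2 or dexamethasone array 1, 2 or 3 only 1 lower call of the list was left, and the call of Tef was lost without any 1 array other than vehicle 2 (highest adjusted p = 0.0425).

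Among 29 immediate early and Kruppel-like factors, 9 rose (31.0%, against 3.05% of all genes) and 5 fell (17.2%, against 3.2%). The members that rose were 8 Kruppel-like factors and the AP-1 subunit Fosl2 (2.13): Klf9 (2.43, adjusted p = 4.41e-20), Klf13 (1.54), Klf15 (1.10), Klf4 (0.97), Klf5 (0.68), Klf7 (0.58), Klf2 (0.57) and Klf6 (0.43, a call lost without vehicle array 1 or 2 or dexamethasone array 1 or 4, highest adjusted p = 0.0158). The members that fell were immediate early genes, which respond within minutes to growth factors and calcium: Egr2 (-1.32, adjusted p = 5.62e-13), Atf3 (-0.88), Fos (-0.58), Egr1 (-0.53) and Ier3 (-0.51).

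In glucose and pyruvate metabolism 4 of 35 measured genes rose (11.4%, against 3.05% of all genes), with a median of -0.04. They were Pdk4, the sugar transporter Slc45a3 (2.23, adjusted p = 1.44e-17), the neuronal-type glucose transporter Slc2a3 (0.52) and the pyruvate dehydrogenase phosphatase Pdp2 (0.60), the opposing enzyme of Pdk4. Slc45a3 had levels of 7.86, 8.0, 7.80 and 7.74 with vehicle and 10.17, 10.08, 10.03 and 10.04 with dexamethasone, without overlap. Slc2a1, the main glucose transporter of astrocytes, had means of 13.72 ± 0.22 and 13.65 ± 0.18 (SD, n = 4) and did not pass the test (-0.07, adjusted p = 0.792). The glycogen-targeting subunit Ppp1r3c was the 1 member called lower (-0.44), which is 2.9% of the list against 3.2% of all genes. This call was lost without vehicle array 1 or 4 or dexamethasone array 2 or 3 (highest adjusted p = 0.0577).

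Genes of lipid droplets and fatty acids had 7 of 39 members higher (17.9%, against 3.05% of all genes) and 1 lower (2.6%, against 3.2%). The droplet proteins Plin4 and Plin5 (0.81), the triglyceride lipase Pnpla2 (1.05), the phosphatidate phosphatases Lpin1 (1.19) and Lpin3 (1.55), the fatty acid ligase Acsl3 (2.10, adjusted p = 3.51e-19) and Mfsd2a, the carrier of lysophosphatidylcholine (1.73), all rose, so that both the storage and the release of triglyceride had members among them. Lipoprotein lipase, Lpl, which is secreted, fell by 0.81 (adjusted p = 3.37e-07). In sterol synthesis and transport 1 of 21 measured genes was lower (4.8%, against 3.2% of all genes) and 0 higher. This was Ch25h, which is described below with the inflammatory genes. Without vehicle array 2 or dexamethasone array 3, 1 member was called higher, and without dexamethasone array 3, 2 were lower.

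In amino acid and glutamate handling 1 of 36 genes was lower (2.8%, against 3.2% of all genes) and 7 rose (19.4%, against 3.05%). Beside Bcat1 these were the mitochondrial isoenzyme Bcat2 (0.60) and Dbt (0.72), a subunit of the next enzyme of branched-chain amino acid breakdown, proline dehydrogenase Prodh (1.75, adjusted p = 1.63e-16), the glutamine carrier Slc38a2 (1.33), the arginine carrier Slc7a2 (0.75) and glutamine synthetase, Glul. The Glul probe was dim for so abundant a transcript of astrocytes, at 7.43, 7.30, 7.48 and 7.98 with vehicle and 8.72, 8.58, 8.89 and 9.39 with dexamethasone (1.35 ± 0.13, adjusted p = 6.25e-10). Slc1a4 was the 1 lower call (-0.34), lost without any 1 array other than vehicle 2 (highest adjusted p = 0.0386), and the glutamate transporters Slc1a2 (0.04) and Slc1a3 (-0.01) did not pass the test.

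**Figure D3:**
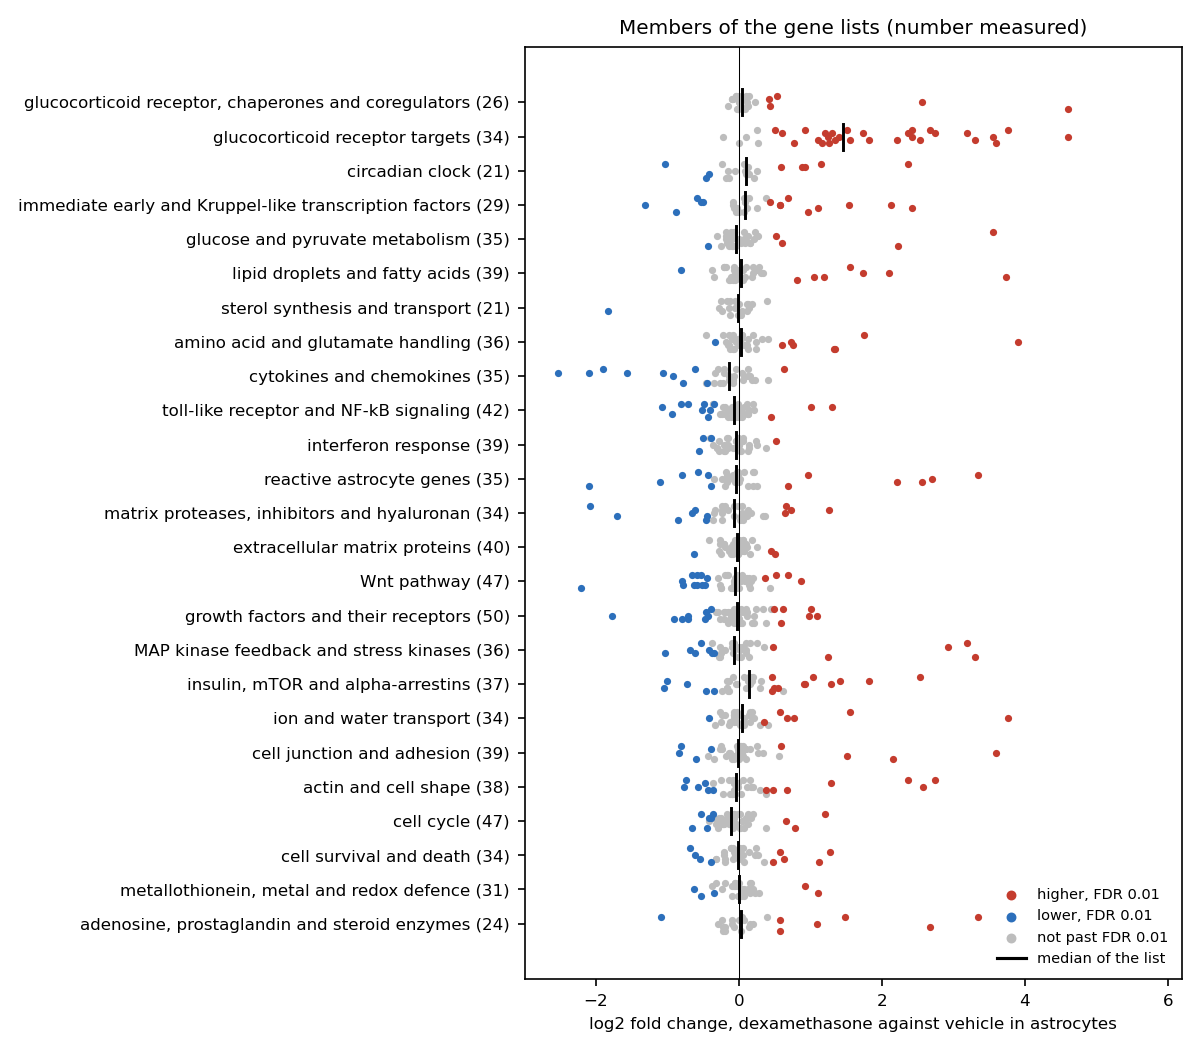
Each point is a measured gene of a list (number measured in parentheses), placed by its log2 fold change with dexamethasone against vehicle in astrocytes (x axis) and coloured red where called higher, blue where called lower and grey where not past a false discovery rate of 1%, with a black bar at the median of the list. The glucocorticoid receptor targets stand to the right at a median of 1.45, whereas cytokines and chemokines have 9 called members to the left and 1 to the right. The lists were chosen with earlier results of these data known.

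The largest fall was that of a chemokine, and 2 more chemokines were among the 15 largest. Ccl4, which attracts monocytes and T cells, measured 12.51, 12.40, 12.39 and 12.23 with vehicle and 10.12, 9.48, 9.83 and 9.97 with dexamethasone. Every treated array was over 2 units below the lowest vehicle array, a difference of -2.53 ± 0.12 or 5.79-fold (limma, adjusted p = 3.48e-18), and a second probe fell by 2.25. Ccl3, its close relative, measured 11.66, 11.79, 11.94 and 11.68 with vehicle against 9.81, 9.71, 10.11 and 9.81 with dexamethasone (-1.91 ± 0.11, limma adjusted p = 3.86e-15). Cxcl10, an interferon-inducible chemokine, measured 10.52, 10.93, 10.60 and 10.30 with vehicle against 8.88, 8.0, 8.77 and 8.33 with dexamethasone, with a wider spread and no overlap (-2.09 ± 0.13, limma adjusted p = 3.13e-14). Csf1, the growth factor that keeps microglia and macrophages alive, measured 10.83, 11.46, 11.43 and 11.35 with vehicle against 9.59, 9.67, 9.73 and 9.84 with dexamethasone. Vehicle array 1 was the lowest of its group and still above all treated arrays (-1.56 ± 0.11, limma adjusted p = 4.02e-13).

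Of 35 measured cytokines and chemokines 9 fell (25.7%, against 3.2% of all genes) and 1 rose (2.9%, against 3.05%), with a median of -0.15. Il1b fell by 1.06 from 7.82 ± 0.12 to 6.76 ± 0.14 and Tnf by 0.93 from 7.91 ± 0.15 to 6.99 ± 0.10 (SD, n = 4), which is background, and Osm (-0.79), Cxcl16 (-0.61) and Il15 (-0.45) also fell. Ccl9 rose (0.63, adjusted p = 0.0001), and without vehicle array 1 or 3 the list had 2 members higher. Other inflammatory mediators did not pass the test: Il6 (-0.07, adjusted p = 0.77) and Ccl2 (-0.35, adjusted p = 0.0959) lay at background, and Ccl5 was at 10.98 with vehicle (0.07, adjusted p = 0.863). Of the 35, 14 were under 7.5 in both groups.

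Toll-like receptor and NF-kB genes had 9 of 42 members lower (21.4%, against 3.2% of all genes) and 3 higher (7.1%, against 3.05%). The receptors Tlr2 (-1.07, adjusted p = 4.56e-10), Tlr1 (-0.71) and Tlr3 (-0.52), the coreceptor Cd14 (-0.43), the adaptor Traf1 (-0.94) and the NF-kB subunit Relb (-0.82) fell, as did Tnfaip3 (-0.49), itself an NF-kB inhibitor. The call of Bcl3 (-0.35) was lost whichever of the 8 arrays was left out (highest adjusted p = 0.0453), Nfkb2 (-0.41) lost it without vehicle array 1, 2 or 4 or dexamethasone array 1 or 4 (highest 0.0314), Cd14 lost it without dexamethasone array 1 or 2 (highest 0.021) and Tlr3 without vehicle array 1 or dexamethasone array 1 (highest 0.0272). The members that rose were Nfkbia, the kinase Map3k8 (0.45) and Tlr7 (1.01, adjusted p = 2.28e-10), a receptor for single-stranded RNA. Tlr4 (0.07, adjusted p = 0.797), Myd88 (-0.01, adjusted p = 0.988) and Rela (-0.12, adjusted p = 0.522) did not pass the test. Of 39 interferon response genes 3 were lower (7.7%, against 3.2% of all genes), Irf8 (-0.56), Irf1 (-0.51) and Gbp2 (-0.40), and 1 higher (2.6%, against 3.05%), Ifi35 (0.52). The number higher went to 0 without vehicle array 1 or 3 or dexamethasone array 1 or 3 and to 2 without vehicle array 2, and the call of Gbp2 was lost without vehicle array 3 or dexamethasone array 2 (highest adjusted p = 0.0198).

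Further inflammatory genes were among the 15 largest falls. Ch25h, which makes an antiviral oxysterol, fell by 1.83 from 12.30 ± 0.12 to 10.47 ± 0.27, Hcar2, a receptor for niacin and ketone bodies, by 1.81 from 8.82 ± 0.10 to 7.01 ± 0.26, and Gpr84, a myeloid receptor for medium-chain fatty acids, from 10.69 ± 0.22 to 8.91 ± 0.23 (SD, n = 4). Tnfrsf11b, the decoy receptor osteoprotegerin (-1.77), the formin Fhdc1 (-1.77) and Asb2, a subunit of a ubiquitin ligase (-1.57), fell as well. C530044C16Rik (-1.93) and 2810459M11Rik (-1.56) are clone names.

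Markers of microglia are given beside these falls because many of the genes above are known from myeloid cells. Of 20 measured microglial markers 1 rose and 2 fell: C1qb (0.59, adjusted p = 7.32e-05), Cx3cr1, the fractalkine receptor (-1.04, adjusted p = 1.47e-11), and P2ry12, the purinergic receptor of resting microglia (-0.58, adjusted p = 0.00058). Cx3cr1 measured 13.73, 13.74, 13.55 and 13.57 with vehicle and 12.61, 12.92, 12.43 and 12.46 with dexamethasone, without overlap. The mean level of the 20 markers was 11.59 to 11.73 on the vehicle arrays and 11.50 to 11.68 on the dexamethasone arrays, so the ranges overlapped, but in each of the 4 replicate numbers the mean was lower with dexamethasone (differences of -0.09, -0.12, -0.06 and -0.04). Of the single markers, Laptm5 (0.02), Trem2 (-0.01) and Csf1r (-0.04) did not pass the test. Their part in the inflammatory falls was not tested. Without vehicle array 2 or dexamethasone array 2, 2 microglial markers were called higher, as with median centring, the filter on dim probes or the trended robust variance. In the fit of all 48 arrays 4 were called lower in place of 2. Another probe of the microglial marker Aif1 also passed the test downwards. The 12 astrocyte markers had a mean level of 12.70 to 12.79 with vehicle and 12.87 to 13.03 with dexamethasone, without overlap. The members that rose were 2 of 12 (16.7%, against 3.05% of all genes), Glul and the growth factor receptor Fgfr3 (1.10, adjusted p = 3.5e-10). These carried the shift: the mean of the other 10 was 13.62 to 13.68 with vehicle and 13.58 to 13.67 with dexamethasone, and the median change over the 12 was 0.02. Other probes of 3 further astrocyte markers passed the test, of Aldoc (0.91) and Ndrg2 (0.62) upwards and of Sox9 downwards (-0.35). Of 12 neuronal markers 1 was lower (8.3%, against 3.2% of all genes), Gad1 (-0.51), between levels near background. No marker of the oligodendrocyte lineage (11 measured), endothelium (10), fibroblasts and mural cells (10) or ependymal cells (6) was called, except that leaving out dexamethasone array 4 gave 1 lower call in the oligodendrocyte lineage and leaving out dexamethasone array 1 gave 1 in ependymal cells. Their mean levels overlapped between the groups.

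**Figure D4:**
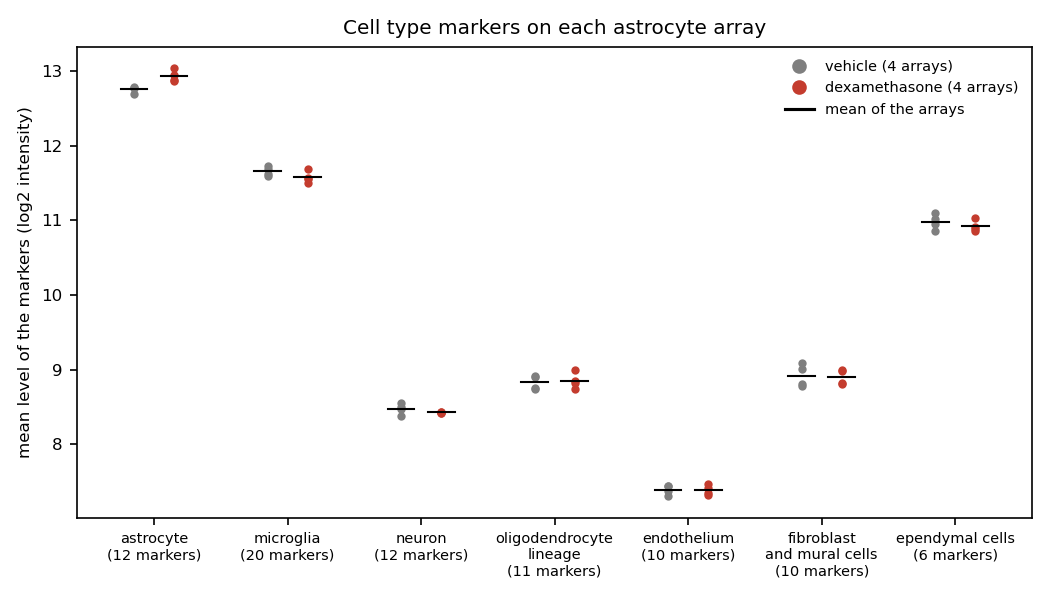
Mean level of the measured markers of 7 cell types (log2 intensity, y axis) on each vehicle array (grey) and dexamethasone array (red) of astrocytes, with the mean of the 4 arrays as a bar. Only the astrocyte markers have ranges that do not overlap, 12.70 to 12.79 with vehicle and 12.87 to 13.03 with dexamethasone, which rests on Glul and Fgfr3.

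Promoters of falling genes were read in the same way for the kappa-B motif in the form GGGANNTTCC, on both strands, which was in 14 of 689 promoters (2.0%) of genes that fell, 14 of 647 (2.2%) of genes that rose and 271 of 19343 (1.4%) of all. Of the 54 promoters of genes that fell by at least 2-fold, 2 (3.7%) held it, those of Cxcl10 on chr5:92348840-92349139 (- strand, match from base -159) and of Csf1 on chr3:107760420-107760719 (-, -154). They are shown with the match in capitals because both genes are among the 15 largest falls. The response element GNACANNNTGTNC was in none of these 54 windows.
Cxcl10: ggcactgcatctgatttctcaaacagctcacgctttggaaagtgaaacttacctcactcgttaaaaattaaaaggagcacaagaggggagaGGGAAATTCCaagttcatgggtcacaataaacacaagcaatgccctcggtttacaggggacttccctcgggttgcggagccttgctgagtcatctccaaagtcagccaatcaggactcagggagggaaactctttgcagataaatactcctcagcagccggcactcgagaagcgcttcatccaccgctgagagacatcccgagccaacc
Csf1: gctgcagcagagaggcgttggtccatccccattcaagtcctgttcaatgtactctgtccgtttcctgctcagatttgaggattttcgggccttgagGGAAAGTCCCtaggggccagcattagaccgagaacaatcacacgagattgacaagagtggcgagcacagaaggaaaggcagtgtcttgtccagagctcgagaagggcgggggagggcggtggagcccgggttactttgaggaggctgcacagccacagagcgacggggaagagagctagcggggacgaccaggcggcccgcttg

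Genes listed for reactive astrocytes moved in both directions, 6 of 35 higher (17.1%, against 3.05% of all genes) and 6 lower (17.1%, against 3.2%). Higher were Slc10a6, Sphk1, Hspb1, Lcn2, Amigo2 (0.97) and Cd109 (0.69). Lower were Cxcl10, the pentraxin Ptx3 (-1.10, adjusted p = 5.95e-10), S1pr3 (-0.80), a receptor for sphingosine 1-phosphate, B3gnt5 (-0.57), Gbp2 and Cd14. Lcn2 was already high with vehicle, at 12.36, 12.31, 11.77 and 11.96, and reached 14.43, 14.41, 14.08 and 14.34 with dexamethasone, without overlap (2.21 ± 0.12, limma adjusted p = 7.59e-16). Gfap did not pass the test (-0.03, adjusted p = 0.898) near the top of the range of the array.

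Of 47 genes of the Wnt pathway 11 were lower (23.4%, against 3.2% of all genes) and 4 higher (8.5%, against 3.05%). Wnt7a, a ligand known for its role in vessels and synapses, measured 10.60, 10.79, 10.52 and 10.41 with vehicle and 8.57, 8.59, 8.13 and 8.17 with dexamethasone, each treated array below all vehicle arrays (-2.21 ± 0.08, limma adjusted p = 1.57e-20). Other ligands that fell were Wnt5a (-0.80, adjusted p = 6.14e-09), Wnt7b (-0.59) and Wnt5b (-0.48), and the receptors were Fzd10 (-0.62), Fzd2 (-0.54) and Fzd5 (-0.52). Axin2 (-0.66) and Ccn4 (-0.79), both known targets of the pathway, also fell. The members that rose were Nkd2, an inhibitor of the pathway (0.86, adjusted p = 2.9e-08), Fzd7 (0.53), the coreceptor Lrp6 (0.68) and Kremen1 (0.36), whose call was lost without vehicle array 1 or 4 or dexamethasone array 3 or 4 (highest adjusted p = 0.0277). Of the 47, 21 were under 7.5 in both groups.

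Among growth factors and their receptors, 9 of 50 fell (against 3.2% of all genes) and 6 rose (against 3.05%). Bdnf, the neurotrophin, fell by 0.91 from 8.93 ± 0.24 to 8.02 ± 0.15 (SD, n = 4; limma, adjusted p = 2.61e-08), Tgfb3 by 0.79, Fgf7 by 0.71, and the platelet-derived growth factors Pdgfb and Pdgfa by 0.71 and 0.44. Receptors rose in 3 cases, Fgfr3, the epidermal growth factor receptor Egfr (1.01, adjusted p = 1.2e-08) and Tgfbr1 (0.59), and fell in 2 beside Tnfrsf11b, Fgfr2 (-0.46) and Tgfbr2 (-0.39). These last calls were lost without vehicle array 1 or dexamethasone array 1 (highest adjusted p = 0.0146) and without dexamethasone array 3 (0.0136), respectively. The ligands that rose were the vasoconstrictor Edn1 (0.98, adjusted p = 6.49e-09), Vegfc (0.61) and Fgf1 (0.49). Hgf was also called lower (-0.48), a call lost without vehicle array 1 or 3 or dexamethasone array 1 or 2 (highest adjusted p = 0.0425).

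Matrix proteases and hyaluronan enzymes had 7 of 34 members lower (20.6%, against 3.2% of all genes) and 4 higher (11.8%, against 3.05%). Plau, the urokinase that activates plasminogen, measured 10.85, 11.08, 10.66 and 10.07 with vehicle and 8.45, 8.68, 8.13 and 9.05 with dexamethasone. Both groups spread over about 1 unit, and the lowest vehicle array, number 4, was still above the highest treated array, also number 4 (-2.09 ± 0.14, limma adjusted p = 2.02e-13). Its receptor Plaur fell by 0.61, and Cemip, which breaks down hyaluronan, by 1.71 from 10.39 ± 0.33 to 8.68 ± 0.18 (SD, n = 4; a second probe at background did not pass the test). Mmp11 (-0.85) and the protease inhibitor Reck (-0.66) fell as well. The members that rose included the metalloproteinase inhibitors Timp4 (0.65) and Timp3 (0.72) and the lysosomal protease Ctsl (1.25, adjusted p = 2.84e-11). Of 40 matrix proteins, 2 were higher (5.0%, against 3.05% of all genes) and 1 lower (2.5%, against 3.2%), near the shares of all genes: higher were the basement membrane chains Col4a2 (0.50) and Col4a1 (0.45), and lower was Col8a1 (-0.63). Neither collagen IV call held without vehicle array 2 or dexamethasone array 2, and 1 was left without dexamethasone array 1, while without vehicle array 3, 2 matrix genes were lower.

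In insulin and mTOR signaling 11 of 37 genes rose (29.7%, against 3.05% of all genes) and 5 fell (13.5%, against 3.2%), with a median of 0.15. The transcription factors Foxo1 (1.41, adjusted p = 4.23e-13) and Foxo3 (1.28) and the FOXO-regulated ubiquitin ligase Fbxo32 (0.46) rose. So did the inhibitors of mTOR signaling Ddit4, Sesn1 (0.92), Deptor (0.47) and Sesn2 (0.54, a call lost without vehicle array 3 or dexamethasone array 3, highest adjusted p = 0.0265). The phosphatidylinositol 3-kinase subunit Pik3r1 (1.03), the inhibitor Pik3ip1 (0.49) and the alpha-arrestins Arrdc2 (1.82, adjusted p = 3.84e-13) and Arrdc3 (0.91) complete the members that rose. Ddit4 measured 11.61, 11.58, 11.47 and 11.40 with vehicle and 14.07, 14.24, 14.02 and 13.89 with dexamethasone, whereas its relative Ddit4l fell, from 12.72, 12.83, 12.60 and 12.80 to 11.83, 11.71, 11.62 and 11.77 (-1.0 ± 0.08, limma adjusted p = 1.65e-11). These paralogs thus changed in opposite directions, each without overlap of the groups. Trib2 (-1.05), Pik3r3 (-0.72), Trib3 (-0.46, lost without vehicle array 2, adjusted p = 0.0154) and Pik3cb (-0.35, lost without vehicle array 1, 3 or 4 or dexamethasone array 1 or 3, highest 0.0289) were lower.

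Of 36 genes of MAP kinase feedback and stress kinases 5 were higher (13.9%, against 3.05% of all genes) and 7 lower (19.4%, against 3.2%). Mapk4, Map3k6, Errfi1 and Gadd45g (1.25, adjusted p = 4.09e-10) led the rises, and the phosphatase Dusp8 (0.47) lost its call without vehicle array 3 or 4 or dexamethasone array 3 or 4 (highest adjusted p = 0.031). Rgs4 (-1.03, adjusted p = 8.04e-09), a regulator of G protein signaling, Gadd45a (-0.69) and Dusp4 (-0.62) were the larger falls. Without vehicle array 2 or 4 or dexamethasone array 2, 4 members were lower. The Gadd45 genes, sensors of stress, were split, since Gadd45g rose and Gadd45a fell, and Gadd45b was called lower (-0.35) except without vehicle array 1 or 2 or dexamethasone array 1, 2, 3 or 4 (highest adjusted p = 0.037).

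Genes of the actin cytoskeleton and cell shape had 7 of 38 members higher (18.4%, against 3.05% of all genes) and 6 lower (15.8%, against 3.2%). Beside Fam107a, those that rose most were the focal adhesion protein Tns1 (2.58, adjusted p = 1.2e-19), Mical2, which oxidizes actin (2.37), and Lmod1 (1.28). The GTPase Rhob (0.67) and Tns3 (0.47) also rose. Cdc42ep4 (-0.77, adjusted p = 2.02e-08), Cdc42ep2 (-0.75) and Synpo (-0.57) fell, and without dexamethasone array 1 or 3 these made up the 3 lower calls in place of 6. Of 39 genes of cell junctions and adhesion 4 rose (10.3%, against 3.05% of all genes) and 4 fell (10.3%, against 3.2%). The rises were Gjb6, Jaml (2.15, adjusted p = 1.07e-19), Mertk and the tight junction protein Cldn1 (0.58), and the falls were leukocyte adhesion and integrin genes, Icam1 (-0.82, adjusted p = 7.03e-09), Vcam1 (-0.39, lost without vehicle array 4, adjusted p = 0.0105), Itga6 (-0.84) and Itga2 (-0.60). Gja1, the other main astrocyte connexin, did not pass the test (-0.26, adjusted p = 0.402).

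In ion and water transport 6 of 34 genes rose (17.6%, against 3.05% of all genes) and 1 fell (2.9%, against 3.2%). Beside Sgk1 and Tsc22d3, which are also known from the aldosterone response of the kidney, these were the potassium channel Kcnk1 (0.67, adjusted p = 1.1e-07), the kinase Wnk4 (0.78), the ubiquitin ligase Nedd4l (0.35, lost without dexamethasone array 4, adjusted p = 0.0131) and Ptgds (0.57, lost without vehicle array 1, 3 or 4 or dexamethasone array 2 or 4, highest 0.0893). The sodium-calcium exchanger Slc8a1 fell (-0.42), with 2 members lower without dexamethasone array 2, and the water channel Aqp4 did not pass the test (-0.27, adjusted p = 0.0803). Among 24 genes of adenosine, prostaglandin and steroid metabolism 6 rose (25.0%, against 3.05% of all genes) and 1 fell (4.2%, against 3.2%). Nt5e, which makes adenosine outside the cell (1.09, adjusted p = 7.29e-12), and Ada, which removes it (1.49, adjusted p = 8.41e-12), both rose. The retinal dehydrogenase Aldh1a1 (0.57), Slc10a6 and Sult1a1 rose too, and the cytochrome Cyp1b1 fell (-1.08, adjusted p = 4.84e-10).

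Genes of the cell cycle had 3 of 47 members higher (6.4%, against 3.05% of all genes) and 6 lower (12.8%, against 3.2%), with a median of -0.12. The cyclin-dependent kinase inhibitor Cdkn1a rose from 12.61 ± 0.15 to 13.81 ± 0.11 (SD, n = 4; limma, adjusted p = 8.45e-12), and the Myc antagonists Mxd4 (0.78) and Mxd1 (0.66) also rose. Plk2 (-0.66, adjusted p = 4.04e-06) and Plk3 (-0.54) fell. The number lower was 2 without vehicle array 1 or dexamethasone array 2 and 3 without vehicle array 4 or dexamethasone array 1, since the calls of Ccnd1 (-0.39), Aurka (-0.42), Tk1 (-0.37) and Ccne1 (-0.45) were close to the threshold. Mki67 (-0.23, adjusted p = 0.181) and Top2a (0.02, adjusted p = 0.949), markers of dividing cells, did not pass the test. In cell survival 5 of 34 genes rose (14.7%, against 3.05% of all genes) and 4 fell (11.8%, against 3.2%). Members of the Bcl-2 family were in both directions. Bcl2l1, which encodes the anti-apoptotic Bcl-x, rose (1.28, adjusted p = 4.98e-11), as did the pro-apoptotic Pmaip1 (0.635, adjusted p = 2.34e-06) and Bmf (0.475). The call of Bmf was lost without vehicle array 4 or dexamethasone array 3 or 4 (highest adjusted p = 0.0447). Bcl2 (-0.68, adjusted p = 3e-05) and the pro-apoptotic Bid (-0.55) fell. The p53 relative Trp63 rose by 1.11, and a second, background probe of it did not pass the test. Of 31 metallothionein, metal and redox genes 2 rose (6.5%, against 3.05% of all genes), Gpx3 (1.10, adjusted p = 1.6e-10) and Mt2. The 3 that were lower (9.7%, against 3.2%) were led by the iron exporter Slc40a1 (-0.62), with 1 lower without vehicle array 1 or 2 or dexamethasone array 2.

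The dexamethasone effect was set against that in striatal neurons of the same series, where 0 genes and 1 probe passed limma's test (2529 probes at an unadjusted p under 0.05). The neurons came from embryos and were grown in supplemented Neurobasal medium, whereas the astrocytes came from pups and were grown in medium with serum. Cell type, age of the animals and culture medium therefore cannot be told apart in the differences between these cultures. A pair of neuron arrays went against the labels in this comparison. The neuron array labelled vehicle 3 had the levels of the treated neurons at responsive genes, and that labelled dexamethasone 3 lay at or towards the untreated ones. For Fkbp5 the neuron vehicle arrays 1 to 4 measured 9.78, 9.81, 10.64 and 9.80 and the neuron dexamethasone arrays 10.85, 10.69, 9.85 and 10.50, and for Fam107a they measured 7.96, 7.85, 11.73 and 7.89 and 10.91, 10.86, 9.28 and 11.11. The neuron changes of the genes named are therefore given with and without these arrays numbered 3, and without them 97 probes and 70 genes passed the test in neurons (2085 probes at an unadjusted p under 0.05). Because the levels of responsive genes chose which arrays were left out, the changes and SEs of such genes without them are not independent of that choice.

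The neuron cultures also had astrocyte transcripts, whose mean level was higher with dexamethasone once the arrays numbered 3 were left out. The mean level of the 12 astrocyte markers was 11.17, 11.20, 11.60 and 11.34 on the neuron vehicle arrays 1 to 4 and 11.42, 11.40, 11.30 and 11.45 on the neuron dexamethasone arrays. Without the arrays numbered 3, every treated neuron array was thus above every vehicle array, and arrays 3 ran the other way. Gfap did the same, at 11.68, 11.79, 12.15 and 11.68 with vehicle and 11.99, 11.94, 11.55 and 11.81 with dexamethasone. Not every marker did so. Aqp4 measured 11.52, 11.43, 11.30 and 11.44 with vehicle and 11.34, 11.11, 11.21 and 11.34 with dexamethasone. Aldh1l1 measured 9.77, 9.89, 9.88 and 9.73 and then 9.66, 9.72, 9.72 and 9.53. Both were lower with dexamethasone within each replicate number. For Aqp4 the vehicle array 3 lay under the dexamethasone arrays 1 and 4, and the groups of Aldh1l1 did not overlap. For the 10 markers not called in astrocytes the means were 11.82, 11.85, 12.12 and 11.97 with vehicle and 12.02, 11.96, 11.85 and 12.01 with dexamethasone, so that the groups overlapped slightly even without arrays 3. The 20 microglial markers had means of 8.78, 8.85, 8.75 and 8.77 with vehicle and 8.67, 8.72, 8.79 and 8.76 with dexamethasone. The part of astrocyte and microglial RNA in the changes measured in the neuron cultures was not tested.

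In a single model of all 48 arrays, the change with dexamethasone differed between astrocytes and neurons for 612 genes (3.02%), and for 483 without both neuron arrays numbered 3. Of the 612, 349 were genes that rose in astrocytes, each with a more positive change there than in neurons, 249 were genes that fell, each with a more negative change, and 14 were not called in astrocytes. In 56 of the 249 the neuron vehicle mean was under 7.5, where a fall could not be measured in neurons. Fkbp5 changed by 0.47 ± 0.13 in neurons (adjusted p = 0.424), a difference of 4.14 ± 0.19 from astrocytes (limma, adjusted p = 6.97e-24), and by 0.88 ± 0.11 in neurons without the arrays numbered 3, when the difference was 3.72 ± 0.14. Errfi1 (0.14 ± 0.09, and 0.18 ± 0.10 without the arrays numbered 3), Ramp2 (0.09 ± 0.10, then 0.10 ± 0.12) and Sphk1 (-0.06 ± 0.09, then 0.01 ± 0.11) did not pass the test in neurons either way. Neither did Sgk1 (0.07 ± 0.10, then 0.20 ± 0.11), whose difference was 1.49 ± 0.14 (adjusted p = 7.09e-12) and without those arrays 1.35 ± 0.15 (adjusted p = 7.13e-10). Bcat1 was already at 12.60, 12.52, 12.80 and 12.35 in untreated neurons.

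Fam107a did not differ past the threshold between the cell types (1.06 ± 0.53, adjusted p = 0.405), and without the neuron arrays numbered 3 it rose by 3.06 ± 0.16 in the neuron cultures, with a difference of -0.31 ± 0.21 (adjusted p = 0.641). Its own levels were among those for which these arrays were left out. Fam107a was the 1 gene of the 30 largest changes without a called difference. Pdk4 rose by 2.72 ± 0.13 and Gjb6 by 2.11 ± 0.12 in the neuron cultures without those arrays, where the mean of the astrocyte markers was also higher, and the differences from astrocytes were then 0.84 ± 0.18 (adjusted p = 0.00161) and 1.48 ± 0.16 (adjusted p = 7.13e-10). Among the falls, Ccl4 and Ccl3 were lower in the treated neurons 1, 2 and 4 than in vehicle neurons 1, 2 and 4, as Ccl4 measured 11.19, 11.13, 9.66 and 10.92 with vehicle and 9.98, 10.04, 10.78 and 9.75 with dexamethasone. The difference for Ccl4 was -1.95 ± 0.31 with all arrays and -1.38 ± 0.27 without those numbered 3, and for Ccl3 it went from -1.38 ± 0.30 (adjusted p = 0.00222) to -0.87 ± 0.28 (adjusted p = 0.0851), which no longer passed the test. The same held for Plau (-1.36 ± 0.27, then -1.01 ± 0.26, adjusted p = 0.0162). Cxcl10 (0.03 ± 0.12, and -0.03 ± 0.14 without the arrays numbered 3), Hcar2 (-0.07 ± 0.10, then -0.08 ± 0.11), Gpr84 (0.02 ± 0.09, then 0.08 ± 0.10), Tnfrsf11b (-0.04 ± 0.10, then -0.04 ± 0.12) and Asb2 (-0.16 ± 0.10, then -0.14 ± 0.12) lay under 7.5 in vehicle neurons, where no fall could be measured, so their differences from astrocytes compare with a floor.

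**Figure D5:**
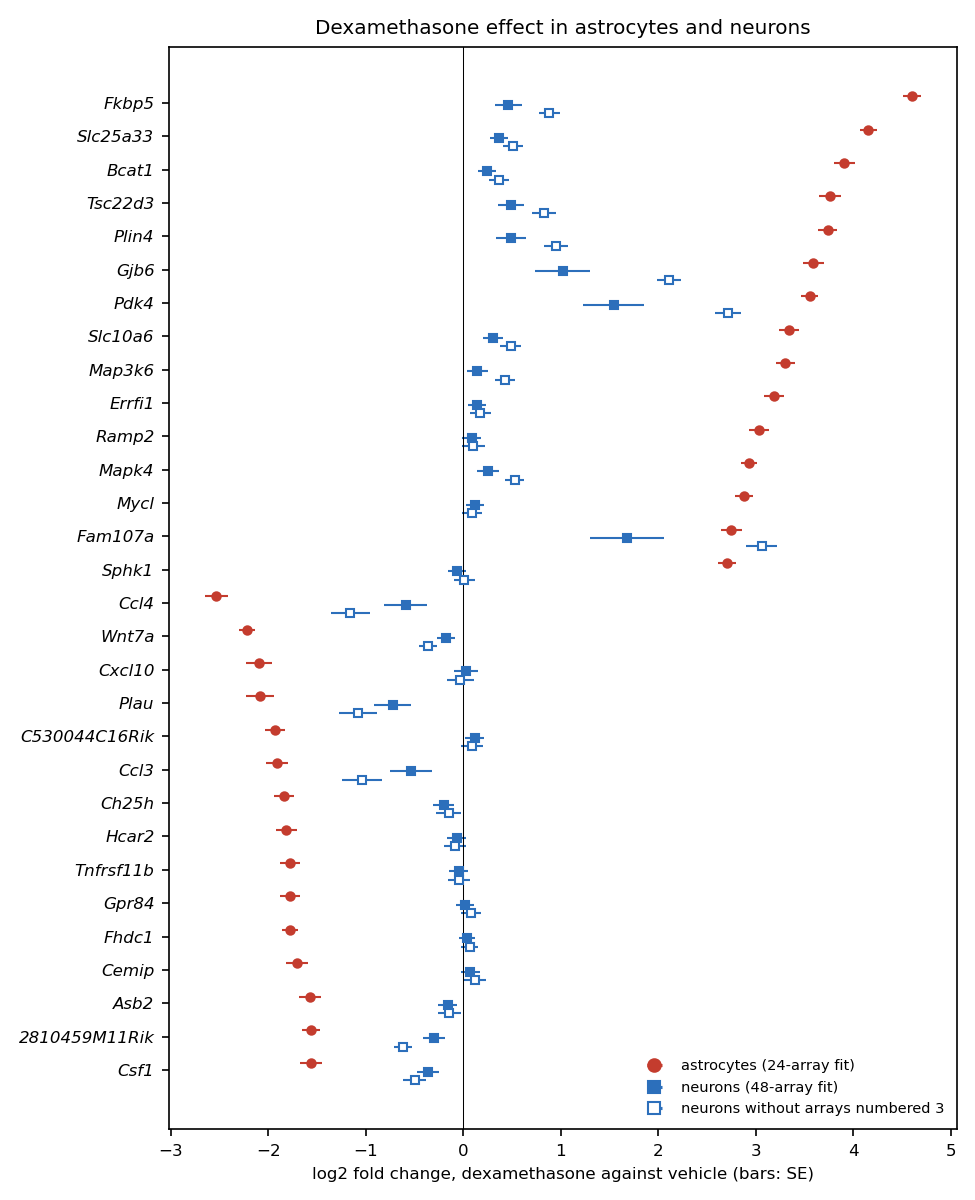
Log2 fold change with dexamethasone against vehicle (x axis, points with SE bars) for the 15 largest rises and 15 largest falls in astrocytes (red circles, fit of the 24 astrocyte arrays) and in neurons (filled blue squares, fit of all 48 arrays, and open blue squares, without the neuron arrays numbered 3). Fam107a, Pdk4 and Gjb6 have the neuron points furthest to the right, at 1.68, 1.54 and 1.02 with all arrays and at 3.06, 2.72 and 2.11 without arrays 3, which were left out for the levels of responsive genes.

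The other 4 steroids of the series were given to astrocytes for 4 h at 200 nM and compared with the same 4 vehicle arrays. Since the doses differ from the 100 nM of dexamethasone and the vehicle arrays are shared, the values stand side by side without a comparison. Aldosterone, the mineralocorticoid, had 161 genes higher and 61 lower, progesterone 25 and 0, and dihydrotestosterone and estradiol 0 each, with 4397 and 3782 probes at an unadjusted p under 0.05 (limma). Fkbp5 changed by 2.68 with aldosterone (adjusted p = 4.77e-20) and by 0.64 with progesterone (adjusted p = 0.000423), beside 4.60 with dexamethasone. Tsc22d3 changed by 2.65 and 1.00 with these steroids, Pdk4 by 2.37 and 0.90, and Mapk4 by 1.90 and 0.99. Slc45a3 stood at 0.05 with aldosterone (adjusted p = 0.906), and Ramp2 at 0.81. Of the falls, Cxcl10 changed by -1.25 with aldosterone (adjusted p = 7.36e-08) and Ccl4 by -0.57 (adjusted p = 0.00434), while Ccl3 (-0.21, adjusted p = 0.45) and Plau (-0.38, adjusted p = 0.209) did not pass the test with aldosterone.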

How the data were processed

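RNA of 48 cultures was hybridised to Illumina MouseWG-6 v2 arrays. The deposited table used here holds normalized log2 intensities; in the authors' methods arrays were quality-checked, background-subtracted and quantile-normalized, and which of these steps the table carries is not given in the sources used here. A deposited table of non-normalized log2 values without detection p-values served only to find chips: its columns, matched by value over 48 arrays, fell on 8 chips of 6 arrays, each with 1 cell type, 1 replicate number and all treatments, although only 1 column was closest to the array its identifier names. By this match the replicate number also stands for the chip, whereas the identifiers in the labels give another layout. Which of the layouts is right was not settled. Deviations of same-number arrays correlated at r = 0.115 to 0.325 in all 60 pairs of astrocyte groups, all over 0.1, and the number was kept as a block. The main test was limma 3.58.1 (R 4.3.3) on the 24 astrocyte arrays with 6 group means and the block (15 residual and 18.1 prior degrees of freedom), Benjamini-Hochberg adjusted over 46174 probes at a threshold of 0.01. All adjusted p-values come from limma. The difference from neurons was fitted on 48 arrays with the block within each cell type. Probes were named from the platform annotation and RefSeq (35725 with 1 symbol, 10449 unnamed). Named are the 15 largest rises and falls without overlap, list members, markers and genes the study's text names; these members and lists were chosen with earlier results of these data known. Scripts were tested on simulated data.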

Additional observations from a re-analysis of the deposited data

Results flagged for a closer look

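Each group of 4 arrays of the 15 largest rises and 15 largest falls was searched for an array far from the others, and 1 of 60 groups was found, where chance gives about 1 in 20. Errfi1 on dexamethasone array 2 was 14.13 beside 13.80, 13.81 and 13.85 on the others, a gap of 0.848 of the range of the group, past Dixon's critical value for 4 arrays.

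The change with dexamethasone differed between astrocytes and neurons, which also differed in animal age and culture medium, for 612 genes by limma's test of the difference itself. These include 29 of the 30 largest changes, which were chosen for the size of their change in astrocytes, so that a larger change there says little by itself. Among the rises the differences (astrocytes minus neurons, log2) were 4.14 for Fkbp5, 3.79 for Slc25a33, 3.67 for Bcat1, 3.27 for Tsc22d3, 3.25 for Plin4, 3.16 for Map3k6, 3.05 for Errfi1, 3.04 for Slc10a6, 2.95 for Ramp2, 2.77 for Sphk1, 2.76 for Mycl, 2.68 for Mapk4, 2.57 for Gjb6 and 2.01 for Pdk4. Among the falls, Cxcl10, Hcar2, Tnfrsf11b, Gpr84 and Asb2 were under 7.5 in vehicle neurons, where no fall could be measured, and the differences were -2.12 for Cxcl10, -2.05 for C530044C16Rik, -2.04 for Wnt7a, -1.95 for Ccl4, -1.81 for Fhdc1, -1.80 for Gpr84, -1.78 for Cemip, -1.75 for Hcar2, -1.73 for Tnfrsf11b, -1.64 for Ch25h, -1.41 for Asb2, -1.38 for Ccl3, -1.36 for Plau, -1.27 for 2810459M11Rik and -1.20 for Csf1. Without both neuron arrays numbered 3, 27 of the 29 passed the threshold, Ccl3 and Plau being the others.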

How the results depend on the processing

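No named gene that was called changed direction under any of the 16 alternatives run for the main comparison. In several of these the design leaves the log2 fold change the same, so that only the call could change. They are the fits without the block, of all 48 arrays and of the 8 arrays alone. The filter on dim probes, the trended robust variance and the methods' t-test also belong to them. Of 232 named genes called, 185 kept the call without any 1 of the 8 arrays, and of the 30 largest changes all 30 kept it under every alternative but the methods' t-test and 26 under that as well. With the methods' t-test 163 of the 232 calls were lost and 45 of 64 list counts moved by over 1.5 times, 22 of them to 0, among them all calls of cell survival and the lower calls of matrix proteases. In that test (8 arrays, Benjamini-Hochberg) 113 genes were higher, 58 lower and 254 probes changed, against 617, 649 and 1975, and 5487 probes had an unadjusted p under 0.05, where the main test had 8103, and 169 of its 171 genes were also called by the main test. The share of higher among its called genes was 66.1%, against 48.7%. With no replicate block 419 genes were lower, 446 higher, all 865 also called with it, and 392 genes differed between astrocytes and neurons in place of 612. Leaving out 1 array in turn gave 519 to 553 genes higher, 493 to 640 lower and 1583 to 1864 probes. The other normalizations (quantile normalization, median centring), the filter on dim probes, the trended robust variance, all 48 arrays and the 8 arrays alone gave counts of genes within 1.5 times those of the main comparison. Of the 64 list counts, 17 moved by over 1.5 times when 1 array was left out and 9 without the block, where 41 named calls were lost. Probes near background limit what can be seen of low transcripts, and those near 16.65 what can be seen of abundant ones.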

Other observations

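Genes outside the lists and the 30 largest changes are given here as values, and were chosen after their values were seen. Rgs17, a regulator of G protein signaling, rose by 2.69, the GTPase Rhou by 2.42, Ppp1r1b, which encodes the dopamine-regulated phosphatase inhibitor DARPP-32 of striatal neurons, by 2.25, Chst15, a chondroitin sulfotransferase, by 2.26, Adarb1, an RNA-editing enzyme, by 1.62, and Mthfd2, an enzyme of mitochondrial folate metabolism, by 1.89. Receptors coupled to G proteins were among the falls beyond those named above, with Sstr2 at -1.35, P2ry13 at -1.31, S1pr2 at -1.29 and Gpr183 at -1.18, as were Clec7a (-1.10), Pilra (-1.14) and Cd180 (-0.96), which are known from myeloid cells. Their relation to the microglial markers was not tested.

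For 22 named genes the probe of highest mean level did not pass the test while another probe of the gene did, upwards for 13 and downwards for 9. The higher ones were Arhgef26 (1.69), Igfbp3 (1.10), Txnip (0.97), Aldoc (0.91), Adamts1 (0.72), Ccn2 (0.70), Ndrg2 (0.62), Ccnd3 (0.61), Glud1 (0.48), Actn4 (0.45), Stat3 (0.45), Csnk1d (0.44) and Pfkm (0.43). The lower ones were Ccnd2 (-0.72), Lima1 (-0.61), Aif1 (-0.52), Mical1 (-0.46 and -0.37), Palld (-0.45), Igfbp4 (-0.41), Ednrb (-0.38), Igf1 (-0.37) and Sox9 (-0.35). These genes are counted as not called in the lists. Counting a gene where any of its probes passed gave 712 genes higher and 735 lower.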
